A study of Rattus norvegicus with 6 samples.

Results

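The interferon regulatory factors (IRFs) are a family of transcription factors that share a DNA-binding domain and recognise GAAA repeats in promoters. The genes described here are Irf1, Irf2, Irf3, Irf4, Irf5, Irf7, Irf8 and Irf9, taken by name from the deposited total-count tables, which makes 8 of 23139 genes listed. In LPS-stimulated rat microglia given siponimod, Irf7 and Irf5 were downregulated about 2.16-fold and 2.01-fold, Irf4 was upregulated 7.85-fold from a very low level, and the other 5 genes did not pass the thresholds used for differentially expressed genes (DEGs). Among these 5, Irf8 was lower in all 3 pairs of libraries and was a DEG once the replicate number was used as a block. The calls of Irf4, Irf5 and Irf7 were each lost without some single libraries, and in some omissions no Irf gene was a DEG. The log2 fold change of Irf4 ranged from 2.29 to 3.25 over the omissions.

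The study asked how siponimod, a modulator of sphingosine-1-phosphate receptors used in multiple sclerosis, changes the transcriptome of microglia under pro-inflammatory stimulation. Bulk mRNA was sequenced from primary microglia of the rat cortex, in 6 libraries. Both conditions received 100 ng/mL lipopolysaccharide (LPS), a molecule of the wall of Gram-negative bacteria that Toll-like receptor 4 senses. The LPS condition also received DMSO, the solvent, whereas LPS/siponimod received 50 µM siponimod, with 3 biological replicates each.

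The cells of both conditions came from Wistar rats at postnatal day 1, grew for 10 days in mixed cortical culture, were shaken off and were then enriched with magnetic beads against CD11b/c. Whether a replicate pooled several animals is not given in the sources used here. The study stimulated its cultures for 1 or 3 days, and the time for the sequenced cells is not stated separately. No library without LPS is among the 6, and the response to LPS itself therefore cannot be read from these values. Total counts were 39484979, 38301365 and 38080379 in LPS replicates 1, 2 and 3, and 46643859, 43336006 and 38857441 in LPS/siponimod replicates 1, 2 and 3. LPS replicate 3 stood apart from the other LPS libraries: over genes, its log2 CPM (counts relative to the library total, scaled by edgeR's TMM method) correlated at 0.935 and 0.945 with LPS replicates 1 and 2, which correlated at 0.983 with each other. The 3 LPS/siponimod libraries correlated at 0.956 to 0.973. Values without each library are therefore given beside the Irf genes whose calls depend on them, and for the gene lists in a paragraph after all lists.

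IRF3, IRF5 and IRF7 are activated by phosphorylation downstream of receptors for LPS and nucleic acids. IRF3 is present in most cells at rest, whereas Irf7 is itself an interferon-induced gene, and both drive transcription of the type I interferons. Secreted interferon then acts through the complex ISGF3, which holds STAT2 and IRF9, on a large set of interferon-stimulated genes. IRF1 activates genes of antigen processing and interferon-gamma responses, and IRF2 is known as its antagonist at shared sites. IRF8 and IRF4 bind DNA mostly with partners such as PU.1 or BATF. IRF8 is required for microglial identity and, with IRF5, has been tied to reactive microglia, whereas IRF4 is known for lymphocytes, for dendritic cells and for alternative activation of macrophages.

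The promoters of the 4 genes on which the results turn are shown first, because interferons and their factors act on IRF genes through elements of this kind. RefSeq gives a promoter window (250 bases before to 50 bases after the transcription start, build GRCr8) for 7 of the 8 genes, Irf2 being the exception. The letters searched were GAAA-NN-GAAA (interferon-stimulated response element, ISRE), TTC-NNN-GAA (interferon-gamma activated site, GAS) and GGAA-NN-GAAA (Ets-IRF composite element), N being any base, on both strands. GAS letters read the same on both strands, and an Ets-IRF match may share its last bases with an ISRE match. The part before the start is printed from 5′ to 3′ on the strand of the gene, and capitals mark matches.
Irf7 promoter, chr1:205800024-205800273, minus strand: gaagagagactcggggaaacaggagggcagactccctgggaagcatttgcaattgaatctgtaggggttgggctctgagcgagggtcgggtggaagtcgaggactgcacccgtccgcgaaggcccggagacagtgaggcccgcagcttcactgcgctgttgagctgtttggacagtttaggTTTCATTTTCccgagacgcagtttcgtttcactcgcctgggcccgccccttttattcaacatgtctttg
Irf5 promoter, chr4:59093205-59093454, plus strand: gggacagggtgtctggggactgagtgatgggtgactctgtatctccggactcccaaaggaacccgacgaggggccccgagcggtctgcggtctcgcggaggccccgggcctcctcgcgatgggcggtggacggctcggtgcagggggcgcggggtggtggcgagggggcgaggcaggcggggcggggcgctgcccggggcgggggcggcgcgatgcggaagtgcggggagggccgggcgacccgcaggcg
Irf8 promoter, chr19:65699034-65699283, plus strand: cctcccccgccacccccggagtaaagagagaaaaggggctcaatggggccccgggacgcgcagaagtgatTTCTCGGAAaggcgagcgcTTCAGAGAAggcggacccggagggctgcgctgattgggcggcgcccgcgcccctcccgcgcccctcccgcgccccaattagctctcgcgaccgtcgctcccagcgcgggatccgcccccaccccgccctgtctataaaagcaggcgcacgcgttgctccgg
Irf4 promoter, chr17:33948731-33948980, minus strand: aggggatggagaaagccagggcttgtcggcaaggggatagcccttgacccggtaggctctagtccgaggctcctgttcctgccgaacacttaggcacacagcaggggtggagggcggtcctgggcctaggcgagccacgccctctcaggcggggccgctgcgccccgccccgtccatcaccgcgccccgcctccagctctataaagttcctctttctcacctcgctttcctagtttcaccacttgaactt

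Irf7 held 1 ISRE match, TTTCATTTTC, which reads on the minus strand of the gene and lies at -69 to -60 from the start. Irf8 held 2 GAS matches, TTCTCGGAA at -180 to -172 and TTCAGAGAA at -161 to -153. Irf5 and Irf4 held none of the 3 motifs in this window. Among the members not printed, Irf1 had the GAS match TTCCCCGAA at -142 to -134 and Irf9 had TTCTAGGAA at -99 to -91, while Irf3 had none. Of 33469 rat promoters of the same 300 bases, 3.92% held the ISRE letters, 8.87% the GAS letters and 2.94% the Ets-IRF letters. These are matches of letters in another build than the one used for mapping, and binding was not measured.

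All 8 genes passed the filter on low counts, together with 11977 genes in all. A DEG was a gene with an adjusted p of at most 0.05 (edgeR's quasi-likelihood test, Benjamini-Hochberg over all genes tested) and a fold change of at least 1.5. Irf5 and Irf7 were downregulated DEGs, 2 of 8, beside 11.7% of all genes tested. Irf4 was the upregulated DEG, 1 of 8, beside 13.6% of all genes. The CPM of the groups did not overlap for the same genes, 2 lower and 1 higher, which was the case for 24.0% (lower) and 25.3% (higher) of all genes tested. With the replicate number as a block, which the data support as a pairing of the libraries, Irf8 joined the downregulated DEGs (3 of 8 beside 16.4%) and Irf4 remained the upregulated one (1 of 8 beside 17.7%). The direction was the same in all 3 pairs of equal number for 4 genes, Irf4, Irf5, Irf7 and Irf8, a count given without the share over all genes.

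**Figure D1:**
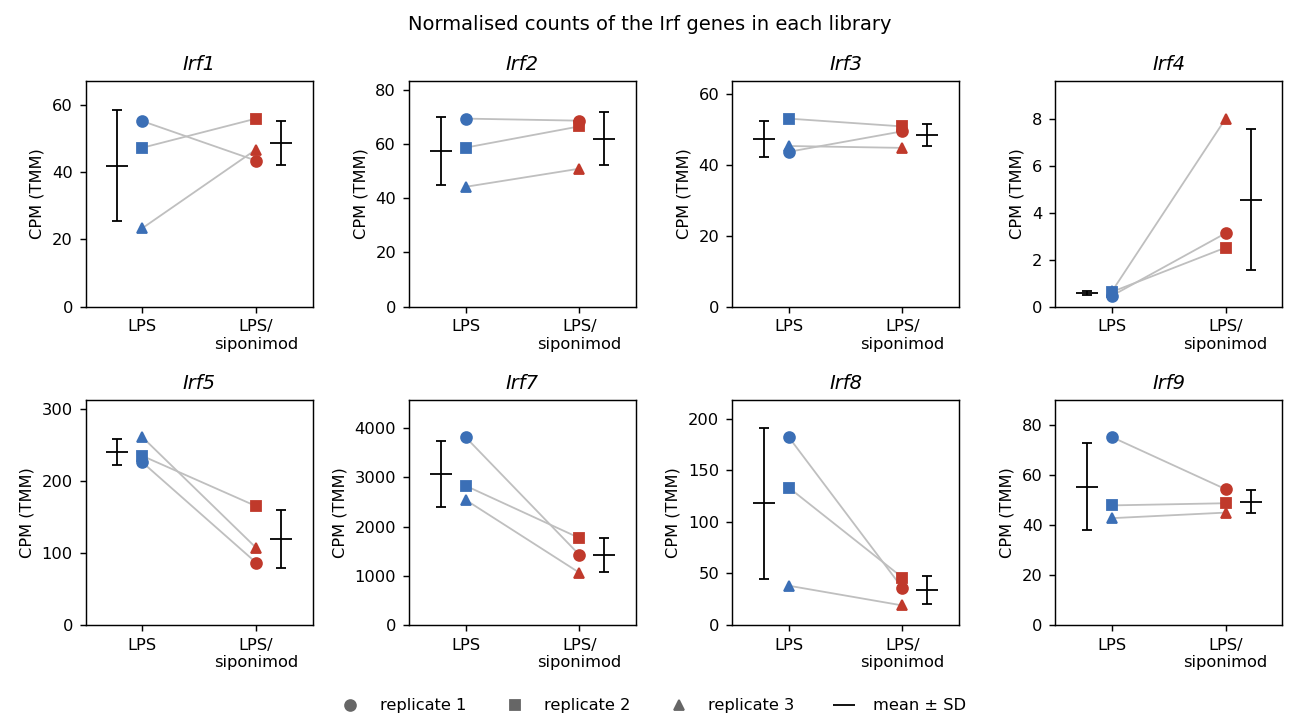
Normalised counts (CPM, vertical axis from 0, a scale of its own for each gene) of the 8 Irf genes in LPS and LPS/siponimod libraries. Points are libraries, marker shapes and grey lines mark the replicate number, and bars beside the points give the mean ± SD (n = 3). Irf5 and Irf7 lie lower and Irf4 higher in every LPS/siponimod library, and the other 5 genes overlap.

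Irf3 encodes the factor that TBK1 and IKKε phosphorylate first after sensing. Its normalised counts were 43.8, 53.2 and 45.4 CPM in LPS replicates 1 to 3 and 49.6, 51.0 and 44.9 CPM in LPS/siponimod replicates 1 to 3. The groups overlapped, and their means were 47.5 and 48.5 CPM. Its log2 FC was 0.03 ± 0.12 (SE, 95% interval -0.26 to 0.32, edgeR adjusted p = 0.868), the narrowest interval of the 8 genes. In RefSeq's GRCr8 annotation Irf3 overlaps Bcl2l12, and because the use of strand in counting is not stated, reads of these neighbours may not be separated. Bcl2l12 showed 17.2, 21.2 and 21.3 CPM in LPS and 13.3, 17.7 and 10.1 CPM in LPS/siponimod (log2 FC -0.54 ± 0.23, edgeR adjusted p = 0.129). The other 7 members overlap no gene that the tables list.

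Irf7, the amplifier of the interferon response, had 3820, 2832 and 2545 CPM in LPS replicates 1 to 3 and 1430, 1770 and 1065 CPM in LPS/siponimod replicates 1 to 3. Every LPS/siponimod library lay below every LPS library, with means of 3066 ± 669 and 1422 ± 353 CPM (SD, n = 3). The log2 FC was -1.11 ± 0.27 (SE, 95% interval -1.77 to -0.45, edgeR adjusted p = 0.0304), and the differences in pairs 1, 2 and 3 were -1.42, -0.68 and -1.26. Irf7 remained a DEG without LPS replicate 3 (edgeR adjusted p = 0.03) and without LPS/siponimod replicate 2 (0.0317). It lost this status without LPS replicate 1 (edgeR adjusted p = 0.0718), LPS replicate 2 (0.0925), LPS/siponimod replicate 1 (0.119) or LPS/siponimod replicate 3 (0.101), with a log2 FC of -1.30 to -0.91 throughout. Among reads of the 8 genes, which are not corrected for transcript length, Irf7 took 85.4%, 83.1% and 84.8% in LPS and 80.7%, 80.2% and 76.8% in LPS/siponimod. All 8 genes together held 0.420%, 0.343% and 0.293% of the counts of LPS libraries and 0.177%, 0.227% and 0.146% of those of LPS/siponimod libraries, so that these groups did not overlap either.

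Irf5, which acts downstream of MyD88 on genes of inflammatory cytokines, stood at 226, 235 and 261 CPM in LPS replicates 1 to 3. With siponimod it stood at 86.9, 165 and 108 CPM. The LPS libraries lay close together, at 241 ± 18.2 CPM (SD, n = 3), and all LPS/siponimod libraries lay below them, at 120 ± 40.7 CPM. Irf5 had a log2 FC of -1.01 ± 0.25 (SE, 95% interval -1.61 to -0.40, edgeR adjusted p = 0.0313), with differences of -1.38, -0.51 and -1.28 in pairs 1, 2 and 3. LPS/siponimod replicate 2 was the highest treated library, and without it the log2 FC was -1.32 (edgeR adjusted p = 0.00966). Every other omission took Irf5 past the 0.05 threshold, with edgeR adjusted p of 0.0718 and 0.1 without LPS replicates 1 and 2, 0.0516 without LPS replicate 3, and 0.103 and 0.107 without LPS/siponimod replicates 1 and 3. Since these are bulk libraries, fewer cells that express a gene and less RNA of it per cell cannot be told apart.

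Irf9, the DNA-binding subunit of ISGF3, had 75.0, 47.8 and 42.7 CPM in LPS and 54.2, 48.6 and 44.9 CPM in LPS/siponimod. LPS replicate 1 was the highest library, and the others lay between 42.7 and 54.2 CPM in both groups. The log2 FC of Irf9 was -0.16 ± 0.23 (SE, 95% interval -0.72 to 0.39, edgeR adjusted p = 0.617) and became 0.14 without LPS replicate 1. Its partner Stat2 had 439, 413 and 272 CPM in LPS and 238, 279 and 210 CPM in LPS/siponimod, values that overlapped at 272 and 279 CPM. Stat2 had a log2 FC of -0.63 ± 0.23 (edgeR adjusted p = 0.0809) and was a DEG with the replicate block (adjusted p = 0.0368).

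Irf1 was counted at 55.1, 47.2 and 23.3 CPM in LPS and at 43.4, 55.9 and 46.7 CPM in LPS/siponimod. The groups overlapped, and LPS replicate 3 had the lowest value. Pairs differed in direction, by -0.35, 0.24 and 1.00, and the log2 FC of 0.22 ± 0.32 (SE, 95% interval -0.55 to 0.98, edgeR adjusted p = 0.631) became -0.07 without LPS replicate 3. Irf2 showed 69.6, 58.8 and 44.3 CPM in LPS and 68.8, 66.7 and 51.0 CPM in LPS/siponimod. In both groups replicate 3 was lowest, and the log2 FC was 0.11 ± 0.21 (SE, 95% interval -0.39 to 0.61, edgeR adjusted p = 0.707), or -0.05 without LPS replicate 3. The intervals of Irf2, Irf3 and Irf9, from the fit without the replicate block, exclude a change of 1 log2 unit in either direction. That of Irf1 ends just below it, at 0.98, and pair 3 of Irf1 differed by 1.00.

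Irf8, the myeloid factor, varied most within the LPS group. It had 182, 133 and 38.1 CPM in LPS replicates 1 to 3 and 35.8, 46.0 and 19.0 CPM in LPS/siponimod replicates 1 to 3. LPS replicate 3 lay below LPS/siponimod replicate 2, so that the groups overlapped, although each LPS/siponimod library was lower than the LPS library of its own number, with log2 differences of -2.34 and -1.53 in pairs 1 and 2 and of about -1 in pair 3. The means were 118 ± 73.2 and 33.6 ± 13.6 CPM (SD, n = 3), a coefficient of variation of 62.2% in LPS and 40.6% in LPS/siponimod. Its log2 FC of -1.81 ± 0.61 (SE, 95% interval -3.28 to -0.34) missed the threshold, with an edgeR adjusted p of 0.0679. With the replicate block the log2 FC was -1.63 ± 0.28 and Irf8 was a DEG (edgeR adjusted p = 0.0133). It was also one without LPS replicate 3 (log2 FC -2.23, edgeR adjusted p = 0.016), by DESeq2 (adjusted p = 0.00715) and by edgeR's likelihood ratio test (adjusted p = 0.013). It was not one under the other 10 alternatives, among them limma-voom (adjusted p = 0.0978), RLE (edgeR adjusted p = 0.0664), no filter (0.0849) and the other 5 omissions, whose edgeR adjusted p lay between 0.0989 and 0.19 at a log2 FC of -2.11 to -1.35.

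Irf4 had few reads in LPS, 17, 24 and 24 counts or 0.459, 0.623 and 0.646 CPM, against a value of 0.0779 to 0.081 CPM for 3 counts in these libraries. In LPS/siponimod it had 145, 112 and 328 counts, or 3.12, 2.51 and 8.00 CPM. All LPS/siponimod libraries lay above all LPS libraries, replicate 3 highest, at 4.54 ± 3.01 against 0.576 ± 0.102 CPM (SD, n = 3). The log2 FC was 2.97 ± 0.53 (SE, 95% interval 1.69 to 4.26, edgeR adjusted p = 0.0136), with 2.64, 1.93 and 3.53 in pairs 1, 2 and 3. Irf4 was the only one of the 8 genes to pass a test against a fold change of 1.5 itself (edgeR's glmTreat, adjusted p = 0.0309, beside 0.129 for Irf7, 0.148 for Irf5 and 0.168 for Irf8). Of all 11977 genes tested, 990 passed this test, 693 of them upregulated. In the main test, Irf4 missed the threshold without LPS replicate 1 (edgeR adjusted p = 0.051) or LPS replicate 2 (0.0639), at a log2 FC of 2.29 to 3.25 whichever library was left out.

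**Figure D2:**
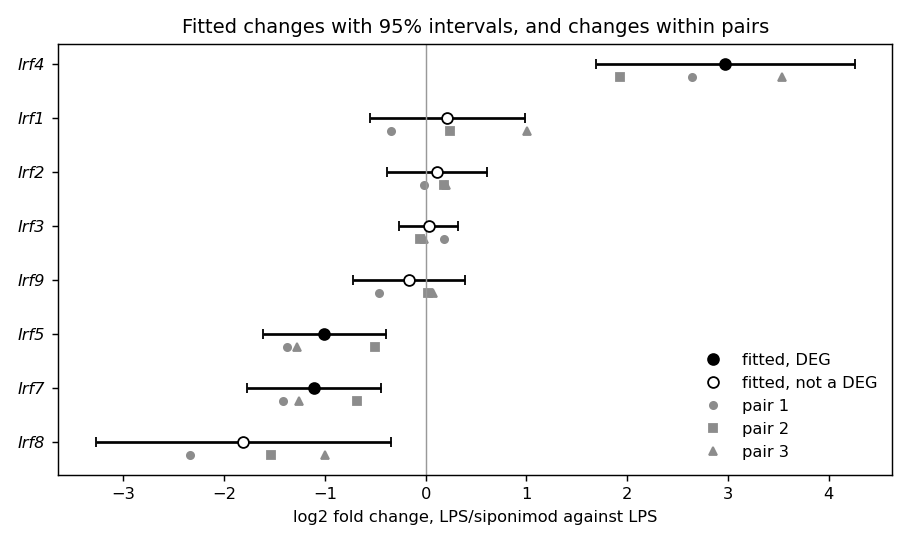
Fitted log2 fold change of each Irf gene, LPS/siponimod against LPS, with its 95% interval (black bars), and the difference of log2 CPM within each pair of equal replicate number (grey). Filled circles are DEGs. Irf4 lies at 2.97 and Irf5, Irf7 and Irf8 between -1.81 and -1.01, and the interval of Irf8, which is not a DEG, is the widest.

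**Figure D3:**
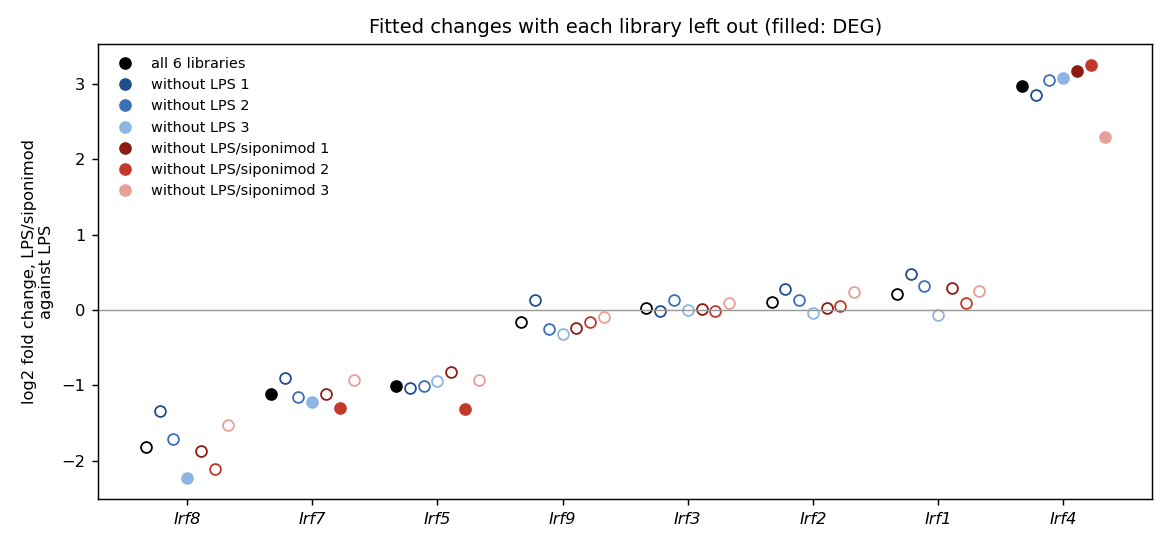
Fitted log2 fold change of each Irf gene with all 6 libraries (black) and with each library left out (colours). Filled circles are DEGs. Irf4 stays between 2.29 and 3.25 and Irf7 between -1.30 and -0.91, while the DEG status of Irf4, Irf5, Irf7 and Irf8 changes with the library left out.

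Ratios of counts between 2 members in the same library do not depend on how the libraries were scaled, and 4 were compared. For Irf8:Irf4 the log2 ratio was 8.59, 7.71 and 5.85 in LPS and 3.52, 4.19 and 1.24 in LPS/siponimod. For Irf5:Irf4 it was 8.90, 8.53 and 8.63 in LPS and 4.79, 6.04 and 3.75 in LPS/siponimod. Both ratios were lower in every LPS/siponimod library, with mean differences of -4.40 and -3.83 log2 units. For Irf5:Irf4 this had to follow, because Irf5 was lower and Irf4 higher in every LPS/siponimod library. Its test therefore adds nothing to the values of the single genes. Irf4, with 17 to 24 counts in each LPS library, had a log2 FC of 2.97 by itself, the larger part of both differences. The log2 ratio of the inducible Irf7 to the constitutive Irf3 was 6.45, 5.74 and 5.81 in LPS and 4.85, 5.12 and 4.57 in LPS/siponimod. These groups did not overlap either, and the mean difference of -1.15 was close to the log2 FC of -1.11 of Irf7 alone. How often ratios of other genes lie without overlap was not counted. Each of these 3 ratios gave p = 0.1 by an exact two-sided permutation test, the smallest p that 3 against 3 libraries allow, and 0.133 after adjustment over the 4 ratios. Irf1:Irf2, activator to antagonist, was -0.34, -0.32 and -0.93 in LPS and -0.67, -0.26 and -0.13 in LPS/siponimod, a difference of 0.18 with overlapping groups (exact permutation p = 0.5).

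**Figure D4:**
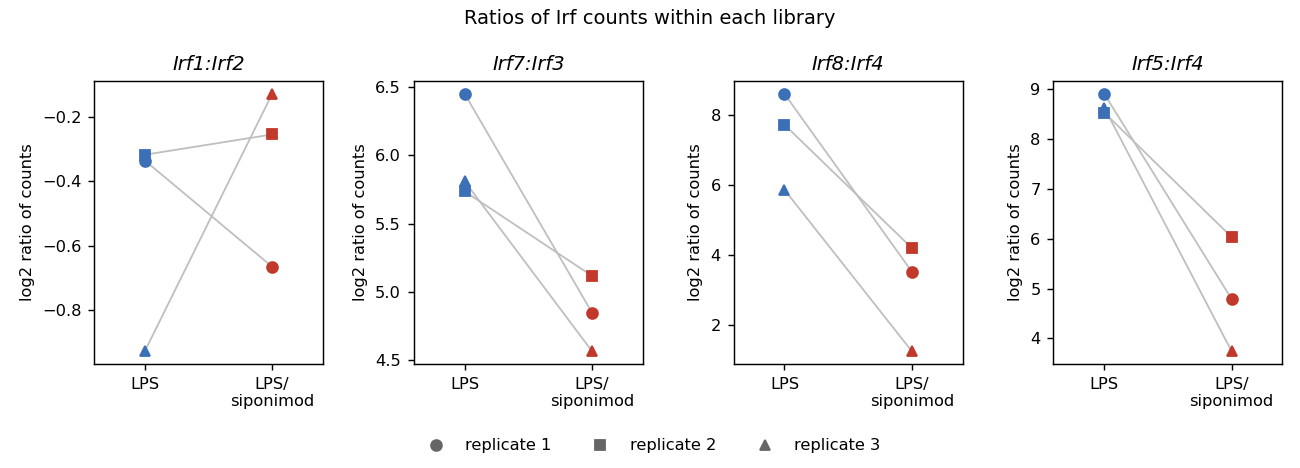
Log2 ratio of the counts of Irf gene pairs within each library (vertical axis, not starting at 0) in LPS and LPS/siponimod. Marker shapes and grey lines show the replicate number. Irf7:Irf3, Irf8:Irf4 and Irf5:Irf4 are lower in all 3 LPS/siponimod libraries, and Irf1:Irf2 overlaps between the groups.

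Genes around the IRFs were then counted in lists written from general knowledge, with earlier results of these data known. No list was tested as a set, and the counts are descriptive. They stand beside a median log2 FC of -0.02, 11.7% downregulated and 13.6% upregulated DEGs over all genes tested (16.4% and 17.7% with the replicate block). Of 24 genes for sensing upstream of IRF3, IRF5 and IRF7, 8 were downregulated DEGs (33.3%, beside 11.7% of all genes) and none was upregulated (median log2 FC -0.49). They included the nucleic acid sensors Cgas (23.9, 27.2 and 18.2 CPM in LPS and 6.41, 8.78 and 7.29 in LPS/siponimod, log2 FC -1.62 ± 0.21, edgeR adjusted p = 0.00733), Dhx58 (log2 FC -1.62 ± 0.32), Tlr7 (-1.54 ± 0.31) and Ifih1 (-0.92 ± 0.15). Tbk1, the kinase of IRF3 and IRF7, had 123, 121 and 98.0 CPM in LPS and 67.3, 84.8 and 67.1 CPM in LPS/siponimod and was downregulated (log2 FC -0.64 ± 0.16, edgeR adjusted p = 0.0295). The LPS receptor Tlr4 was not a DEG, at 38.0, 42.0 and 17.6 CPM in LPS and 54.5, 47.8 and 63.9 CPM in LPS/siponimod (edgeR adjusted p = 0.125), and was chosen after its values were seen.

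Of the interferons, Ifnb1, the main type I interferon of stimulated microglia, had 16, 7 and 40 counts in LPS and 0, 1 and 1 in LPS/siponimod. These counts were under the filter and were not tested, but the groups did not overlap. Of 9 genes tested among receptors and JAK-STAT partners, Stat3 (log2 FC -0.91 ± 0.13) and Jak2 (-0.62 ± 0.13) were downregulated (22.2%, beside 11.7% of all genes). Ifngr1, a chain of the interferon-gamma receptor, was upregulated, from 217, 154 and 105 CPM to 328, 388 and 251 CPM (log2 FC 1.02 ± 0.30, edgeR adjusted p = 0.0498). The median of this list was -0.37.

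Of 16 DNA-binding and co-regulator partners tested, 1 was a downregulated and 1 an upregulated DEG, 6.25% each, beside 11.7% and 13.6% of all genes, with a median of -0.67. With the replicate block there were 5 and 2 of 16, beside 16.4% and 17.7% of all genes. Nlrc5, a co-activator of MHC class I genes that is itself interferon-induced, fell by 1.27 log2 units (SE 0.30, edgeR adjusted p = 0.027), and Cebpb rose by 0.95 (SE 0.24, edgeR adjusted p = 0.0321). Spi1, which encodes PU.1, the partner of IRF8 and IRF4, had 473, 501 and 494 CPM in LPS and 356, 419 and 273 CPM in LPS/siponimod. Its groups did not overlap, but at a log2 FC of -0.49 ± 0.19 it was not a DEG (edgeR adjusted p = 0.097). Batf3 had a log2 FC of -1.82 ± 0.62 at counts of at most 73 (edgeR adjusted p = 0.0698), and Irf2bp2, a co-repressor that binds IRF2, had one of 1.35 ± 0.54 (edgeR adjusted p = 0.107, and 0.0174 with the replicate block). Ciita had between 0 and 7 counts and was not tested.

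Of 15 inhibitors of IRF activity or of interferon signalling, 5 were downregulated DEGs (33.3%, beside 11.7% of all genes) and 1 was upregulated (6.67%, beside 13.6%), with a median of -0.43. The replicate block gave 6 and 2. The smallest adjusted p belonged to Isg15 (log2 FC -1.59 ± 0.18) and the ubiquitin ligase gene Trim21 (-0.94 ± 0.12), followed by Trim30c (-2.50 ± 0.41) and Usp18 (-1.19 ± 0.20), the protease that removes ISG15 from proteins. Isg15 and Usp18 are interferon-stimulated genes themselves and also stand in the list of IRF3, IRF7 and ISGF3 targets. Ptpn2, a phosphatase of JAK and STAT proteins, was upregulated (log2 FC 0.59 ± 0.14, edgeR adjusted p = 0.0291). Socs1, with 5.05, 3.79 and 7.35 CPM in LPS and 2.50, 2.38 and 4.02 CPM in LPS/siponimod, was not a DEG (edgeR adjusted p = 0.108, and 0.0255 with the replicate block).

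Target lists were counted in the same way. Of 27 genes described as targets of IRF3, IRF7 or ISGF3, 19 were downregulated DEGs (70.4% of the list, beside 11.7% of all genes), none was upregulated, all 27 had a negative log2 FC, and the median was -1.31. Isg15 had 535, 516 and 441 CPM in LPS and 142, 200 and 155 CPM in LPS/siponimod. Eif2ak2, the double-stranded RNA-dependent kinase, had 367, 358 and 311 CPM in LPS and 113, 162 and 115 CPM in LPS/siponimod (log2 FC -1.41 ± 0.19, edgeR adjusted p = 0.00779). Ifi44l (log2 FC -1.32 ± 0.16) and Ifi44 (-1.23 ± 0.16) fell likewise, without overlap of the groups. Of 24 genes described as IRF1 targets, 12 were downregulated (50%, beside 11.7% of all genes) and none was upregulated (median -0.78), while Irf1 itself was not a DEG. With the replicate block 13 were downregulated and 2, Nos2 and Il12b, were upregulated. Among them were the guanylate-binding protein genes Gbp4 (log2 FC -2.31 ± 0.37) and Gbp2 (-1.46 ± 0.27), Casp1, which encodes an inflammatory caspase (-0.90 ± 0.14), and the proteasome activator Psme1 (-0.83 ± 0.16). Nos2, in the same list, was not a DEG, at 1490, 382 and 2916 CPM in LPS and 6432, 3163 and 5572 CPM in LPS/siponimod (edgeR adjusted p = 0.124), but was an upregulated DEG with the replicate block (log2 FC 2.04 ± 0.46, adjusted p = 0.0268). Its groups did not overlap, and Nos2 and Il12b were chosen after their values were seen.

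Of 22 genes described as targets of IRF8 or IRF5, 4 were downregulated DEGs and none upregulated (18.2% of the list, beside 11.7% of all genes), with a median of -1.08. The replicate block gave 11 and 1, beside 16.4% and 17.7% of all genes. Aif1, which encodes the microglial protein Iba1, had 808, 946 and 878 CPM in LPS and 184.2, 392.1 and 137.7 CPM in LPS/siponimod (log2 FC -1.88 ± 0.40, edgeR adjusted p = 0.0212). Cx3cr1, the fractalkine receptor of microglia, had 69, 202 and 35 counts in LPS and 3, 21 and 4 in LPS/siponimod (log2 FC -3.65 ± 1.00, edgeR adjusted p = 0.0392). Tlr2, a receptor for bacterial lipoproteins, was a further one (log2 FC -1.10 ± 0.29). P2rx4, the purinergic receptor gene known as a target of IRF8 and IRF5 in microglia, was not a DEG, at 337, 221 and 190 CPM in LPS and 231, 149 and 140 CPM in LPS/siponimod (log2 FC -0.53 ± 0.29, edgeR adjusted p = 0.215), with log2 differences of -0.54, -0.57 and -0.45 in the 3 pairs.

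Of 8 genes described as IRF4 targets, 2 were upregulated (25%, beside 13.6% of all genes) and 1 was downregulated (12.5%, beside 11.7%), with a median of -0.69. With the replicate block 2 were upregulated and 2 downregulated, beside 17.7% and 16.4% of all genes. Il1rn, the interleukin-1 receptor antagonist, rose from 203, 147 and 45.3 CPM to 4050, 1437 and 2170 CPM (log2 FC 4.28 ± 0.70, edgeR adjusted p = 0.0112), and the histone demethylase gene Kdm6b rose by 0.84 ± 0.12 log2 units (edgeR adjusted p = 0.00876). Mrc1, the mannose receptor, fell from 370, 279 and 326 CPM to 51.1, 81.1 and 50.8 CPM (log2 FC -2.41 ± 0.24, edgeR adjusted p = 0.0054).

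The lists share genes, so that their counts are not separate. Dhx58, Ddx58 and Ifih1 are DEGs of both the sensing list and the IRF3, IRF7 and ISGF3 targets, Isg15 and Usp18 of the latter and the inhibitors, and Nlrc5 of the partners and the IRF1 targets.

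The numbers of DEGs in these lists depended on single libraries, as did those of all genes tested. Of all genes, 5.13%, 1.44% and 14.5% were downregulated DEGs without LPS replicates 1, 2 and 3, and 1.52%, 11.6% and 2.24% without LPS/siponimod replicates 1, 2 and 3. For IRF3, IRF7 and ISGF3 targets there were 9 and 6 downregulated DEGs without LPS replicates 1 and 2, 23 without LPS replicate 3, and 5, 20 and 6 without LPS/siponimod replicates 1, 2 and 3, with a median of -1.41 to -1.17. For IRF1 targets the same omissions gave 5, 1, 12, 1, 8 and 3, for IRF8 and IRF5 targets 1, 1, 7, 1, 7 and 1, for sensing 2, 1, 9, 1, 8 and 1, and for inhibitors 4, 2, 5, 3, 5 and 3. The partners gave 0, 0, 2, 0, 5 and 0, the JAK-STAT list 1, 1, 3, 1, 2 and 1, and the IRF4 targets 1, 1, 1, 1, 2 and 1. Upregulated DEGs of the IRF4 targets numbered 1 without LPS replicate 2 and 2 under each other omission, beside 3.72% to 15.9% of all genes. Medians that moved by over 1.5 times were those of the IRF4 targets and the partners, which were -0.32 and -0.43 without LPS replicate 1. Of the 29 DEGs that the naming rule took from the lists, 10 were DEGs whichever library was left out, among them Isg15, Eif2ak2, Ifi44, Ifi44l, Cgas, Trim21, Stat3, Mrc1 and Kdm6b, with edgeR adjusted p of at most 0.0483. Gbp4, Trim30c and Il1rn lost the call without LPS replicate 2 (edgeR adjusted p of 0.0515, 0.0538 and 0.0598), and Casp1 without LPS replicate 2 or LPS/siponimod replicate 1 (up to 0.0576). Gbp2, Ifih1, Psme1 and Usp18 lost it without LPS replicate 2 or LPS/siponimod replicates 1 or 3 (edgeR adjusted p up to 0.0779). Aif1, Cx3cr1, Tlr7, Dhx58, Tbk1, Jak2, Nlrc5, Cebpb and Ptpn2 were DEGs only without LPS replicate 3 or LPS/siponimod replicate 2, and reached edgeR adjusted p up to 0.147 otherwise. Tlr2 kept the call only without LPS/siponimod replicate 2 and Ifngr1 only without LPS replicate 1 (edgeR adjusted p up to 0.108 and 0.16).

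**Figure D5:**
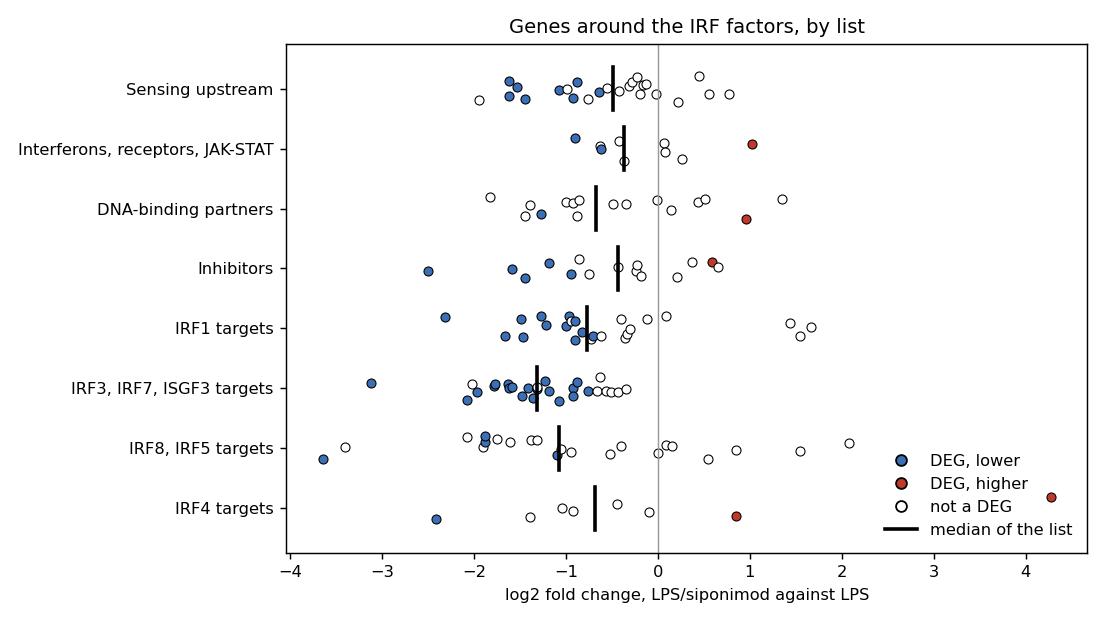
Fitted log2 fold change (LPS/siponimod against LPS, horizontal axis) of each gene tested in 8 lists around the IRFs, with the median of each list as a black bar. Blue and red points are DEGs, white points are not, and the vertical position within a list is only to separate points. The targets of IRF3, IRF7 and ISGF3 have 19 downregulated DEGs and a median of -1.31, and the IRF4 targets hold DEGs in both directions.

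The genes whose pattern over the 6 libraries was most like that of each member were taken by the root mean square (RMS) difference of log2 CPM after centring, among genes with a mean of at least 10 CPM. For Irf7 these were Siglec5 (RMS 0.087 log2 units), Pml (0.092), the gene of the nuclear body scaffold, and Bbln (0.105). For Irf5 they were Lclat1 (0.051), the phosphatase gene Inpp5d (0.065) and Batf (0.09). Irf8 was closest to Siglec1 (0.15), a sialic acid receptor gene of macrophages that had 1562 ± 871 CPM in LPS and 501 ± 243 CPM in LPS/siponimod (SD, n = 3), and then to Galnt11 (0.153) and Gna15 (0.2). Irf4 had no close match, its nearest being Ctdp1 (0.366), the amino acid transporter gene Slc38a2 (0.373) and Larp1b (0.38). Irf9 was closest to Relb (0.058), RGD1564804 (0.09) and Abhd4 (0.091), and Irf3 to Senp3 (0.036), Rtel1 (0.04) and Stk16 (0.045). Irf2 was closest to Dnaja4 (0.039), Nfic (0.063) and Zeb2 (0.065), and Irf1 to Ctps2 (0.098), Fbxl20 (0.124) and Glipr1 (0.149). All these values describe the same 6 libraries, and condition is shared by all genes.

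Markers of cell types were counted beside these results, and their numbers of DEGs stand beside 11.7% downregulated and 13.6% upregulated of all genes tested, or 16.4% and 17.7% with the replicate block. Of 12 microglial markers tested, 4 were downregulated DEGs (Aif1, Itgam, Cx3cr1 and Siglec5) and none was upregulated, whereas the replicate block gave 7 and 1. Their summed level was 9790, 7940 and 5520 CPM in LPS and 4370, 5270 and 3230 CPM in LPS/siponimod, without overlap, and Csf1r was the most abundant at a mean of 1460 CPM over the libraries. Csf1r, Itgam and Aif1, which define microglia and macrophages, were thus abundant in both groups, while Cx3cr1 and P2ry12 were low, at means of 2.68 and 10.9 CPM in LPS. Endothelial markers (most abundant Cdh5) summed to 167, 214 and 93.5 CPM in LPS and 39.6, 83.9 and 28.2 CPM in LPS/siponimod, with 1 of 4 downregulated (3 with the block). Neutrophil markers (Cxcr2) summed to 10.2, 26.5 and 7.40 CPM and to 0.689, 2.42 and 0.683 CPM, with 1 of 3 tested downregulated (2 with the block) and Mpo and Elane at 0.

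B cells and plasma cells, which are known for Irf4, had summed marker levels of 16.1, 60.9 and 30.9 CPM in LPS and 1.16, 22.4 and 1.2 CPM in LPS/siponimod. Cd79b was the most abundant (mean 21.9 CPM) and the only 1 of the 6 markers tested. It was not a DEG, but was a downregulated one with the replicate block (log2 FC -3.49, edgeR adjusted p = 0.0266). T and NK cell markers summed to 2.86, 1.53 and 0.700 CPM in LPS and 3.08, 3.43 and 2.41 CPM in LPS/siponimod, with Cd8a most abundant, Cd3e and Cd3g at 0 and 1 of 2 tested (Klrb1a) upregulated. Dendritic cell markers (Zbtb46) summed to 4.16, 2.91 and 1.48 CPM and to 2.37, 2.40 and 3.17 CPM, with overlap, and the 1 gene tested was not a DEG. Of brain cells, the oligodendrocyte lineage (Mbp) summed to 5.37, 5.37 and 36 CPM in LPS and 11.4, 10.3 and 22.6 CPM in LPS/siponimod, neurons (Tubb3) to 3.18, 2.28 and 12.2 CPM and to 6.65, 9.84 and 17.6 CPM, and astrocytes (Slc1a3) to 42.5, 21.1 and 24.3 CPM and to 27.6, 26.9 and 59.2 CPM. In these lists 1 of 3, 1 of 3 (2 with the block) and 0 of 3 genes tested were upregulated. Fibroblast and mural markers (Dcn) summed to 6.05, 4.78 and 3.98 CPM and to 11.9, 4.64 and 8.68 CPM, with 1 of 5 upregulated. The summed oligodendrocyte and neuronal markers were highest in the replicates 3 of their groups, but single genes differed. In LPS replicate 3, the library that stood apart, Olig1 (13.9 CPM), Pdgfra (7.65 CPM) and Olig2 (6.46 CPM) made up most of the lineage sum, whereas Mbp was lowest there among LPS libraries (4.02, 4.18 and 2.26 CPM). Among astrocyte markers, Gfap had 1, 2 and 88 counts in LPS replicates 1 to 3, and Sox9 had 0, 5 and 99. Slc1a2 had 5, 3 and 82, whereas Slc1a3, which made up most of the astrocyte sum, and Aldh1l1 were lowest in LPS replicate 3 among LPS libraries. These genes were chosen after their values were seen. The part of these markers in the values of the Irf genes was not tested.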

How the data were processed

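The authors prepared polyA-captured libraries, sequenced single reads of 150 bases, converted them with bcl2fastq (version 2.20.0.422, per the submitters' processing notes), and trimmed, mapped (mRatBN7.2) and counted them in the CLC Genomics Workbench. They deposited total read counts per gene, without normalization, as 1 table per library. How multiple matches, strand and introns were treated is not given in the sources used here. In the tables, 1 row without a name was left out.

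Tests were run in edgeR (version 4.0.16, R version 4.3.3) after filterByExpr (minimum count 10, minimum total 15), with TMM, glmQLFit and glmQLFTest and condition as the only term. The SE is the log2 FC divided by the square root of the F statistic. P-values measure the spread between the 3 replicates per condition. A simulated data set served as a check of the procedure. Pair differences use log2 CPM (prior count 2), and ratios use counts plus 0.5. A value of 3 counts was 0.0646 to 0.081 CPM, a floor for counting error alone, as reads carried no molecular identifiers.

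Same-numbered libraries deviated together from their group means (correlation over genes 0.42, 0.545 and 0.611), so that the numbers were treated as pairing the libraries, from the data and not from a statement. The block was used as an alternative.

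The Irf genes, 8 pathway lists and 10 marker lists were chosen with earlier results of these data known. Named were all members, up to 4 DEGs per direction and list by adjusted p, set partners, the 3 genes most like each member, and leading or absent markers, and a few of these are not reported here. Alternatives were RLE, DESeq2 (version 1.42.0), limma-voom (version 3.58.1), the likelihood ratio test, other filters, the block, glmTreat and single libraries left out.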

Additional observations from a re-analysis of the deposited data

How the results depend on the processing

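The comparison gave 3036 DEGs among all genes and 3 among the 8 Irf genes. RLE, limma-voom, no filter and a mean of at least 1 CPM also gave 3 Irf DEGs, and DESeq2, the likelihood ratio test and the replicate block gave 4. The block raised the number over all genes to 4074, DESeq2 gave 3898, and glmTreat gave 990 DEGs (297 downregulated and 693 upregulated) and 1 Irf DEG. Leaving out single libraries gave 651 to 3713 DEGs and 0 to 3 Irf DEGs, with fewer libraries in the fit. The replicate block changed the call of Irf8 and of no other Irf gene.

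Irf4, Irf5, Irf7 and Irf8 kept their direction under all 14 alternatives. Small changes turned when a library was left out: Irf3 to -0.01 (LPS replicate 1, and LPS/siponimod replicate 2 with -0.013), Irf9 to 0.138 (LPS replicate 1), and Irf1 to -0.07, Irf2 to -0.045 and the Irf1:Irf2 log2 ratio to -0.023 (LPS replicate 3). Over the omissions Irf1 ranged from -0.07 to 0.474, Irf2 from -0.045 to 0.283, Irf3 from -0.013 to 0.134, Irf9 from -0.316 to 0.138 and the Irf1:Irf2 log2 ratio from -0.023 to 0.335.

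With 3 libraries per condition, an exact permutation test cannot go below 0.1. Depth was not the limit for Irf7, with at least 43653 counts per library, whereas Irf4 rests on 17 to 24 counts in each LPS library.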
